A study of Mus musculus with 2 samples.

Results

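The genes described here encode splicing factors and heterogeneous nuclear ribonucleoproteins (hnRNPs) of mouse CD4+ T cells cultured with or without the cytokine IL-27. Members were the genes whose single symbol in the platform annotation begins with Srsf and a digit (SR proteins), Hnrnp (hnRNPs), Sf3a or Sf3b and a digit (SF3 subunits), or Snrp (snRNP proteins). Of 11807 genes measured, 44 met this rule, read by 100 of 18003 probe sets with 1 symbol. They comprised 8 SR proteins with 26 probe sets, 16 hnRNPs with 35, 9 SF3 subunits with 19 and 11 snRNP proteins with 20.

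The cells were naive CD4+ T cells of female C57BL/6J mice, from the spleen and the lymph nodes, which plate-bound anti-CD3 and anti-CD28 had stimulated for 60 h. The IL-27-treated group is a culture that also received recombinant mouse IL-27 at 25 ng/ml, and the untreated group is a culture that did not, so both carry the same activation. Each group has 1 array, the number of animals behind it is not stated, and the values cannot separate an effect of IL-27 from the variation between cultures. No test could therefore be run, and every difference below is the log2 intensity on the IL-27-treated array minus that on the untreated array.

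Splicing removes introns from transcripts in the nucleus. Small nuclear RNAs, wrapped by a ring of Sm proteins into small nuclear ribonucleoproteins (snRNPs), recognise the splice sites, and the SF3a and SF3b complexes hold the U2 snRNP on the branch point. SR proteins bind exons through RNA recognition motifs and recruit this machinery with their arginine- and serine-rich tails, whereas hnRNPs coat nascent transcripts and often oppose them. In T cells, activation shifts the splicing of many transcripts, and the skipping of variable exons of the phosphatase CD45 (Ptprc) through hnRNP L and hnRNP LL is the textbook case.

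The array medians were close, but the RMA processing makes intensity distributions alike, so this does not show that the arrays agreed. Median intensities over all 22716 probe sets were 32.4 on the IL-27-treated array and 33.3 on the untreated array, and 6897 genes exceeded a background floor of 24.4 on at least 1 array. All 8 measured markers of CD4+ T cells, among them Cd4 and the CD3 chains, were above that floor, as were 1 of 2 markers of CD8+ T cells (Cd8b1), 1 of 4 of B cells, 2 of 5 of macrophages and 1 of 3 of NK cells. Of the CD4+ T cell markers 6 were lower on the IL-27-treated array, Cd5 by the most with a difference of -0.69, and their summed intensity was 14066 on the IL-27-treated array and 15814 on the untreated array. Summed intensities were 196.0 on the IL-27-treated array and 136.5 on the untreated array for CD8+ T cell markers, 61.7 and 55.0 for B cell markers, 91.3 and 119.8 for macrophage markers and 40.6 and 139.0 for NK cell markers. Cd8b1 differed by 0.57, and Cd68, a macrophage marker, had 27.5 on the IL-27-treated array and 54.9 on the untreated array. Below the floor on both arrays were Cd8a, Cd79a, Ms4a1, Pax5, Adgre1, Lyz2, Cd14, Ncr1 and Klrb1c. The B cell marker Cd79b had 25.6 on the IL-27-treated array and 20.2 on the untreated array. The macrophage marker Csf1r had 24.4 on the IL-27-treated array and 26.2 on the untreated array. The NK cell marker Klrd1 was at 16.4 on the IL-27-treated array, below the floor, and at 114.2 on the untreated array. Array control probe sets for Actb RNA differed by 0.03 to 0.08 and those for Gapdh RNA by -0.18 to -0.11, without a trend from the 5′ to the 3′ end. Those above the floor for the transferrin receptor differed by 0.03 at the 3′ end and 0.39 at the 5′ end, those for pyruvate carboxylase by -1.25 at the 3′ end and -0.59 in the middle, and those for 18S ribosomal RNA by 1.10 to 1.55. The part of these markers and controls in the results below was not tested.

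Expression of the splicing genes was nearly the same on both arrays. Of the 44 members, all above the floor on at least 1 array, 0 differed at least 2-fold and 0 at least 1.5-fold, against 4.22% and 12.4% of all genes above the floor. With a lower limit of 0.322 on the log2 scale, 4 members were higher on the IL-27-treated array and 0 lower, against 16.5% and 16.6% of all genes. These 4 were Srsf3, Srsf1, Snrpa1 and Hnrnpab. Member differences ran from -0.19 to 0.50 with a median of 0.11, and 33 of the 44 were within 0.2 of 0. The quartiles were 0.04 and 0.20 for the members and -0.20 and 0.22 for all genes above the floor.

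Most of the small differences had the same sign. Of the members, 35 (79.5%) were higher on the IL-27-treated array by any amount and 9 lower, against 52.1% of all genes above the floor higher by any amount. The family medians were 0.16 for SR proteins, 0.09 for hnRNPs, 0.10 for SF3 subunits and 0.15 for snRNP proteins, beside 0.02 over all genes. With the mean of all probe sets in place of the brightest, the median was 0.043 for SR proteins and 0.053 for hnRNPs. This mean also takes in probe sets below the floor. Srsf2 was at 0.04 by it and at 0.15 over its probe sets above the floor. After a loess fit between the arrays the median was 0.056 for hnRNPs and 0.063 for SF3 subunits. The SD of the differences was 0.16 over the members and 0.50 over all genes. With each array's median subtracted the median of the members was 0.15, and after the loess fit it was 0.08. In a bulk culture, a different share of cells with high levels and a different level per cell cannot be told apart either.

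**Figure D1:**
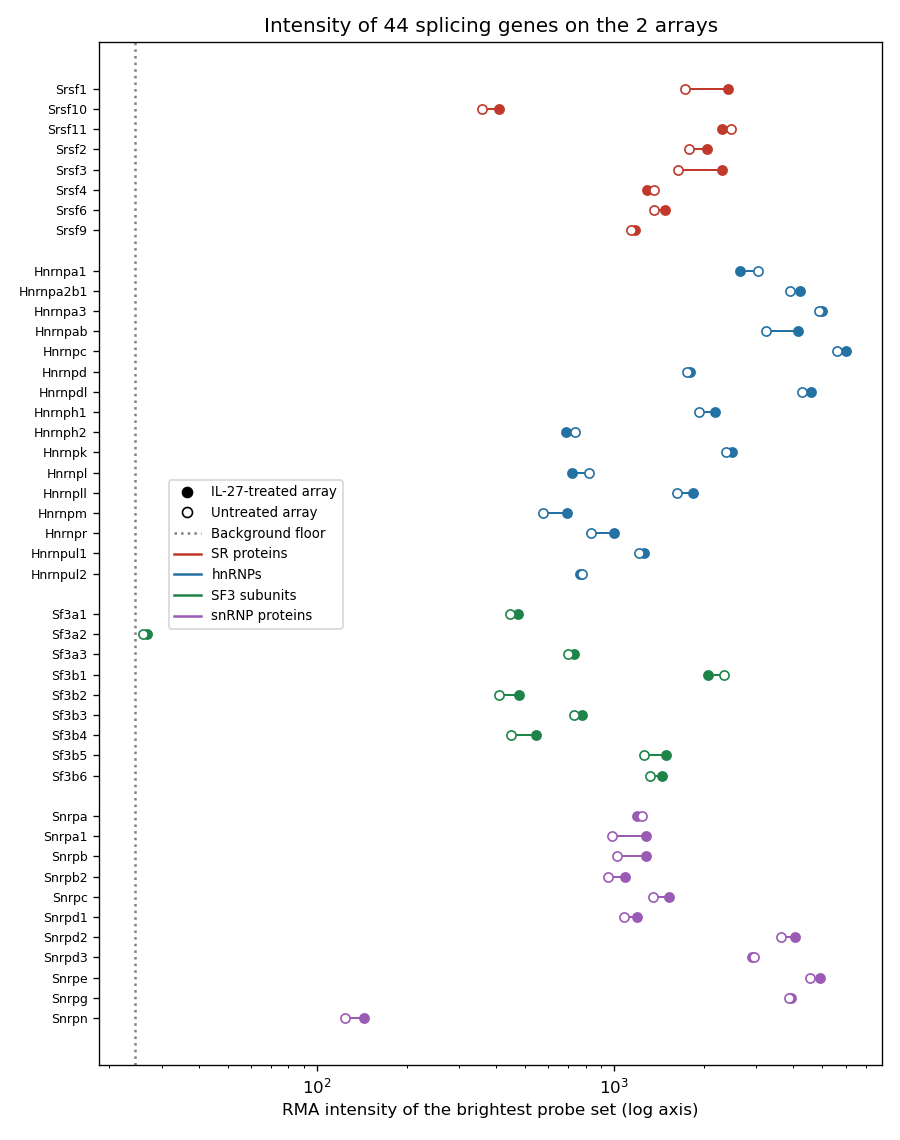
Intensity on a log axis of the brightest probe set of each member, with filled points for the IL-27-treated array, open points for the untreated array and a dotted line at the background floor of 24.4. The 2 points of each gene lie close together, and Sf3a2 alone sits beside the floor.

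Intensities ran from 26.7 to 6037 on the IL-27-treated array and from 25.9 to 5608 on the untreated array, and 42 of the 44 members had a mean log2 level of at least 8. The plot of intensities by member shows how little the arrays were apart for most genes. The members below 8 were Sf3a2, near the floor on both arrays, and Snrpn. Since bright genes vary less on these arrays, those 42 were set beside the 3167 genes at or above the same level, which was chosen after seeing the data. Their differences had an SD of 0.16, against 0.41 for all such genes. None of the 42 was 1.5-fold apart, against 9.03% of the bright genes, and 33 (78.6%) were higher by any amount, against 54.2%. The median difference was 0.11 for these members and 0.03 for the bright genes. Levels were not fully matched, since the median intensity on the IL-27-treated array was 1485.5 for these members and 626.1 for the bright genes. On the untreated array it was 1350 for these members and 625.1 for the bright genes.

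SR proteins held the widest differences. Srsf3, the smallest SR protein and also an adaptor for mRNA export, had intensities of 2305 on the IL-27-treated array and 1634 on the untreated array, a difference of 0.50. Srsf1, the founding member known as ASF or SF2, had 2415 on the IL-27-treated array and 1734 on the untreated array, a difference of 0.48. Both values come from genes whose probe sets did not all agree, and the value of Srsf1 depended more on which was chosen. Of the 6 probe sets of Srsf3, 5 were higher by 0.32 to 0.56, and the other differed by -0.53, with intensities of 61.8 on the IL-27-treated array and 89.2 on the untreated array. The mean over the 6 was 0.29. Of the 4 probe sets of Srsf1, 3 differed by 0.16 to 0.48 and the other by -0.53, with 504.3 on the IL-27-treated array and 728.5 on the untreated array. The mean over these 4 was 0.10. The probe set that stands for Srsf1 is of a type (ending in _x_at) prone to cross-hybridization, and the brightest one outside the types _x_at and _s_at gave 0.16.

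The other SR proteins were within 0.2 of 0. Srsf2, known as SC35, had 2043 on the IL-27-treated array and 1784 on the untreated array, and its 4 probe sets above the floor gave -0.02 to 0.33. Srsf10, which turns into a splicing repressor when dephosphorylated, had 409.1 on the IL-27-treated array and 358.7 on the untreated array, and its 4 probe sets all lay on the higher side, at 0.09 to 0.32. Srsf6 differed by 0.12, and its 3 probe sets lay on both sides of 0, at -0.15 to 0.12. On the lower side were Srsf11, with 2295 on the IL-27-treated array and 2472 on the untreated array and -0.11 and -0.22 by its 2 probe sets, and Srsf4 at -0.07. Srsf9 differed by 0.05 by its single probe set.

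**Figure D2:**
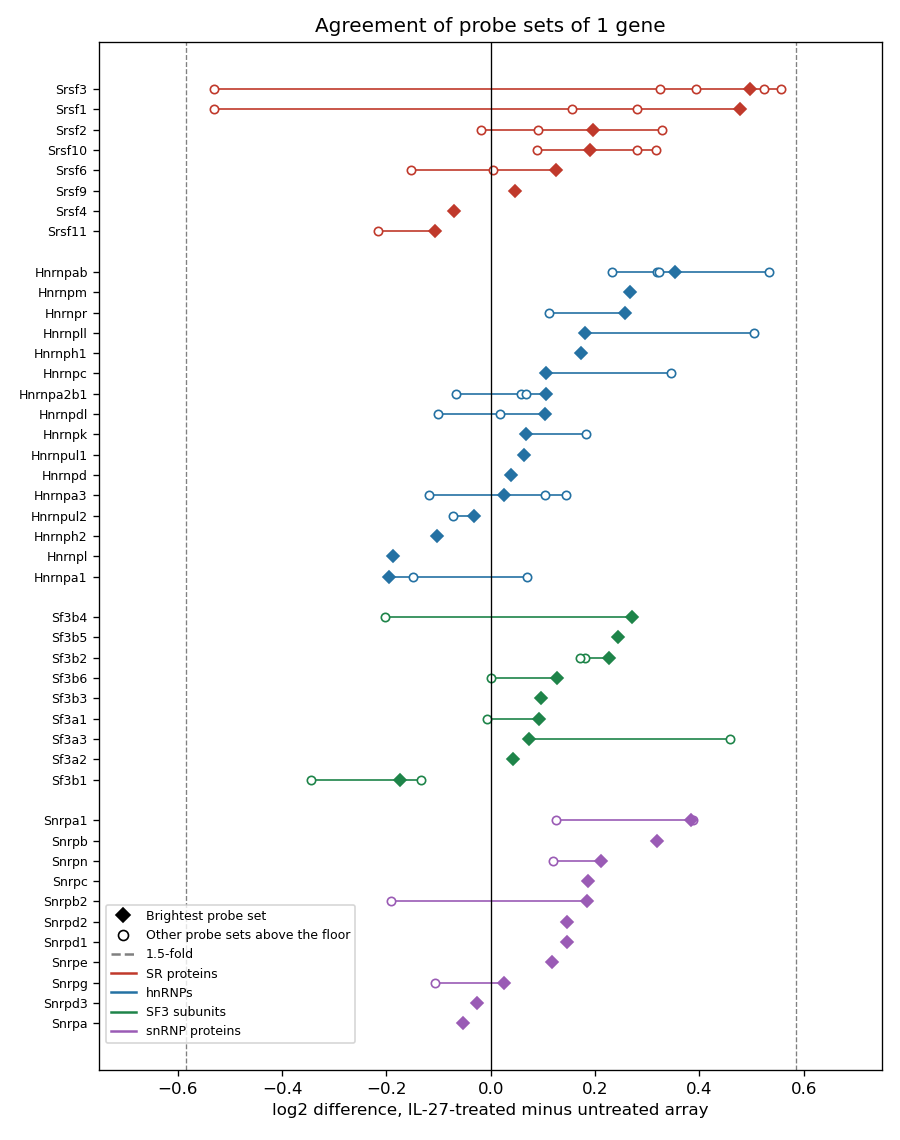
Log2 difference, IL-27-treated minus untreated array, of every probe set above the floor, with a diamond for the brightest probe set of a gene, open circles for its others, a line over their range and dashed lines at 1.5-fold. No probe set passes 1.5-fold, and the probe sets of Srsf3 and Srsf1 are the most spread, from -0.53 to 0.56 and from -0.53 to 0.48.

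Among the hnRNPs, Hnrnpab stood highest, and its probe sets agreed. This relative of hnRNP A and D proteins, also known as CBF-A, had 4134 on the IL-27-treated array and 3238 on the untreated array, a difference of 0.35, and all 5 probe sets lay between 0.23 and 0.53. Hnrnpm had 690.2 on the IL-27-treated array and 573.9 on the untreated array, a difference of 0.27 from 1 probe set. Hnrnpr had 1000 on the IL-27-treated array and 836.3 on the untreated array, and its 2 probe sets gave 0.26 and 0.11. Each of the other hnRNPs was within 0.2 of 0.

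The regulators of CD45 splicing lay on opposite sides of 0. Hnrnpll, which represses variable exons of CD45 in activated T cells, had 1834 on the IL-27-treated array and 1619 on the untreated array, a difference of 0.18, and its other probe set differed by 0.50. Hnrnpl, a binder of CA-rich RNA, had 721.7 on the IL-27-treated array and 821.5 on the untreated array, a difference of -0.19 from 1 probe set. Their target Ptprc had 4717 on the IL-27-treated array and 4827 on the untreated array, a difference of -0.03. A 3′ array reads the summed level of a gene and not the share of its isoforms, so exon use of Ptprc was not measured. Among the other 3 measured genes of a list of T cell splicing targets, Cd44, an adhesion receptor with variable exons, differed by 1.17 and its other probe set by 0.89. The kinase gene Fyn differed by -0.23, but by 0.02 by its other probe set, and Cd3e by -0.15.

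Apart from Hnrnpab, the hnRNPs of the A, B, C and D types were within 0.2 of 0 by their brightest probe sets. Hnrnpa1, which antagonises SRSF1 in the choice of splice sites, had 2656 on the IL-27-treated array and 3040 on the untreated array, a difference of -0.19, while its other probe sets gave -0.15 and 0.07. Hnrnpa1 has many processed pseudogenes, and the probe set that stands for it is of the type (_x_at) prone to cross-hybridization, so its value is uncertain. Hnrnpa2b1 differed by 0.11 with 4 probe sets from -0.07 to 0.11, and Hnrnpa3 by 0.02 with 4 probe sets from -0.12 to 0.14. Hnrnpc, which binds uridine tracts of nascent RNA, had 6037 on the IL-27-treated array and 5608 on the untreated array, a difference of 0.11, against 0.35 by its dimmer probe set. Hnrnpdl differed by 0.10 with 3 probe sets from -0.10 to 0.10. Hnrnpd, known as AUF1 and a binder of AU-rich elements, differed by 0.04, and Hnrnpk, a binder of C-rich RNA, by 0.07 and 0.18 from 2 probe sets. The G-tract binders Hnrnph1 and Hnrnph2 differed by 0.17 and -0.10, and Hnrnpul1 and Hnrnpul2 by 0.06 and -0.03.

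The SF3 subunits were split between 1 gene on the lower side and 8 on the higher side. Sf3b1, the scaffold that clasps the branch point adenosine, had 2072 on the IL-27-treated array and 2337 on the untreated array, a difference of -0.17, and all 3 probe sets lay on the lower side, at -0.34 to -0.13. Sf3b4 had 542.9 on the IL-27-treated array and 449.9 on the untreated array, a difference of 0.27, but its dimmer probe set gave -0.20 and the mean of both was 0.03. Sf3b5 had 1490 on the IL-27-treated array and 1258 on the untreated array, a difference of 0.24. Sf3b2 had 477.5 on the IL-27-treated array and 408.0 on the untreated array, and its 3 probe sets agreed closely, at 0.17 to 0.23. Sf3b6, the subunit known as p14 that lies near the branch point, differed by 0.13, with 0.001 by its other probe set above the floor, and Sf3b3 by 0.10.

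In the SF3a complex, Sf3a1 differed by 0.09. Sf3a3 differed by 0.07, although its dimmer probe set gave 0.46 and the mean of both was 0.27, above the mean of any other SF3 subunit. Sf3a2 had 26.7 on the IL-27-treated array and 25.9 on the untreated array, so close to the floor that a difference could hardly have been seen.

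Among the snRNP proteins, Snrpa1 was highest. It encodes a protein particular to the U2 snRNP, and had 1282 on the IL-27-treated array and 982.5 on the untreated array, a difference of 0.38, with its other 2 probe sets at 0.39 and 0.13. Its partner in the U2 snRNP, Snrpb2, had 1082 on the IL-27-treated array and 952.4 on the untreated array, a difference of 0.18, but -0.19 by the other probe set above the floor. The U1 proteins did not stand out, with Snrpc at 0.19, from 1529 on the IL-27-treated array and 1344 on the untreated array, and Snrpa at -0.05.

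The Sm ring proteins were between -0.03 and 0.32. Snrpb, which encodes SmB, had 1275 on the IL-27-treated array and 1022 on the untreated array, a difference of 0.319 that lay just inside the limit of 0.322. Snrpn, an imprinted gene for the closely related SmN and best known from brain, had 143.5 on the IL-27-treated array and 124.0 on the untreated array, a difference of 0.21, with 0.12 by its other probe set above the floor. Probe sets of these 2 related genes may pick up each other's transcripts. Snrpd1, Snrpd2 and Snrpe differed by 0.15, 0.15 and 0.12, and Snrpd3 by -0.03. Snrpg had 3927 on the IL-27-treated array and 3858 on the untreated array, a difference of 0.03, and -0.11 by its other probe set.

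Agreement of probe sets was the only check within the arrays on the value of a gene. Of the 100 probe sets, 93 were above the floor on at least 1 array. None of the 93 differed 1.5-fold or more, against 12.5% of all 10054 probe sets with 1 symbol above the floor. On the IL-27-treated array 15 (16.1%) were higher by 0.322 or more, close to the 17.0% of all such probe sets, and 3 (3.23%) lower by 0.322 or more, against 16.9%. In 26 members with several probe sets above the floor, the probe sets shared a sign in 14, of which 11 were higher and 3 (Srsf11, Hnrnpul2 and Sf3b1) lower, and were mixed in 12. Signs were shared in 53.8% of these members and in 68.9% of all 2251 genes with several probe sets above the floor.

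Pooled over the members, the spread of probe sets within a gene was no smaller than that between gene means, except among the hnRNPs. The pooled SD of a difference among probe sets of a gene was 0.21 over the 26 members and 0.21 over all 2251 genes. The SD between genes of their mean differences was 0.15 for the members and 0.43 for all genes. The SD within genes is of single probe sets and that between genes is of means, so they are not on the same scale. Since probe sets of a gene were spread this far apart, the order of the members by difference is uncertain. The pooled SD within genes was 0.30 for SR proteins, 0.12 for hnRNPs, 0.17 for SF3 subunits and 0.16 for snRNP proteins. The SD between gene means was 0.16, 0.16, 0.17 and 0.16 in the same order. Probe sets more than 0.5 apart occurred in 2 members, Srsf1 and Srsf3, and in 11.7% of all such genes.

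**Figure D3:**
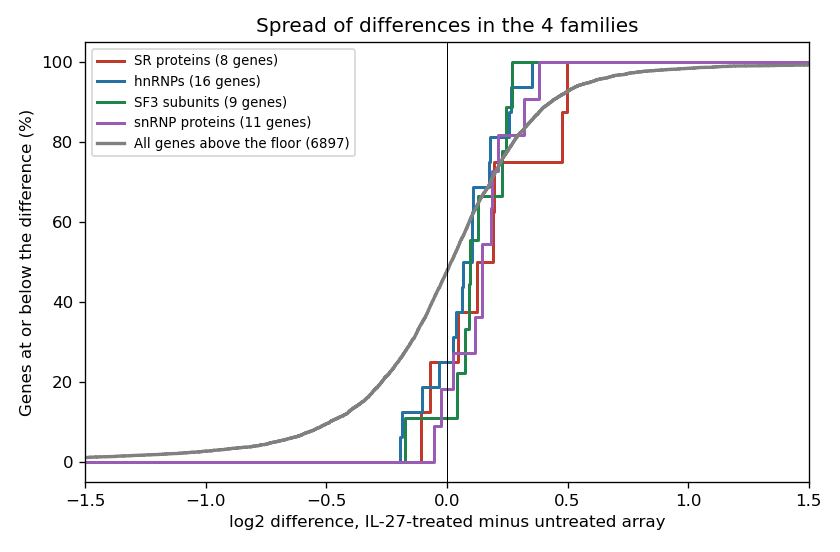
Share of genes at or below each log2 difference, IL-27-treated minus untreated array, for the 4 families and for all 6897 genes above the floor, on an axis from -1.5 to 1.5. The curves of the families are steep and cross 50% between 0.09 and 0.16, while the curve of all genes has long tails on both sides and crosses at 0.02.

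Sequences around the transcription start were read from a RefSeq promoter table of GRCm38.p6, which matched 38 of the 44 members with 52 windows. Each window ran from 250 bases before to 50 bases after a start. Of the 4 members past 0.322, the stretch from 150 bases before to 20 bases after the start is shown, 5′ to 3′ on the gene's strand, so that the promoters of the genes furthest from 0 can be compared. Capitals mark matches on either strand to any of 4 motifs, none of which contains another. The letters CCGGAAG form the core of many sites of ETS factors. The GC box, a site of Sp factors, was searched as GGGCGG. The TATA box was searched with the letters TATAAA. The GAS-type element, which is the form that STAT factors bind, was searched as TTCNNNGAA.
Srsf3, chr17:29032510-29032679, plus strand: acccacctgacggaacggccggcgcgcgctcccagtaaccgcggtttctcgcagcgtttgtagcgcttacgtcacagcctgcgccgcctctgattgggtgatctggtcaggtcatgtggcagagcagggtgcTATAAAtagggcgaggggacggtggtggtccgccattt
Srsf1, chr11:88047223-88047392, plus strand: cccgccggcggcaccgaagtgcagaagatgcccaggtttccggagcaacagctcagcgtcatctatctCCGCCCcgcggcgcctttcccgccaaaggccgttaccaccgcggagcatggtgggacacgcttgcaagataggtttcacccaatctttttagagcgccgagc
Snrpa1, chr7:66060186-66060355, plus strand: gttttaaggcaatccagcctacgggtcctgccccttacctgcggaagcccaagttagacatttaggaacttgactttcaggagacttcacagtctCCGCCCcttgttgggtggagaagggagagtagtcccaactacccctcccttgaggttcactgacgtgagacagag
Hnrnpab, chr11:51606862-51607031, minus strand: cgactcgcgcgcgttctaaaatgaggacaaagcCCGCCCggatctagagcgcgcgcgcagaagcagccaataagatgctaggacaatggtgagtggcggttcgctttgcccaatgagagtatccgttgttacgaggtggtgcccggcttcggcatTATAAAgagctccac
The letters TATAAA occurred in the stretches of Srsf3 and Hnrnpab, and a GC box in those of Srsf1, Snrpa1 and Hnrnpab. In Srsf3 the TATAAA letters lie before the start and in Hnrnpab after it, so neither is shown to be a working TATA box. None of the 4 stretches held a GAS-type or an ETS-type match, which says only that these letters are not in these windows.

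CpG content was summarised over the full windows, so a gene with several starts counts several times. The median ratio of observed to expected CpG was 1.06 for SR proteins, 1.01 for hnRNPs, 0.93 for SF3 subunits and 0.66 for snRNP proteins. The snRNP median leans on 1 gene, since 4 of its 13 windows are of Snrpn, at 0.13 to 0.57. Its other windows ran from 0.37 for Snrpa1 to 1.06 for Snrpg. The median was 0.96 for the windows of all members, 0.50 for those of genes at least 2-fold apart, 0.78 for those of genes above the floor and 0.38 for all 32851 windows. GAS-type matches occurred in at least 1 window of 5 of 38 members (13.2%), against 8.36% of genes above the floor and 9.55% of all genes in the table. GC boxes occurred in 68.4% of members, against 71.3% of genes above the floor and 38.2% of all. TATAAA, counted at any position of the window, occurred in 18.4%, against 8.44% and 15.7%. A match is a description of letters and not a site shown to be bound.

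ETS-type matches were spread unevenly over the families. They occurred in 6 of 7 SF3 genes, 4 of 9 snRNP genes, 2 of 8 SR genes and 1 of 14 hnRNP genes, against 23.7% of genes above the floor, 8.04% of genes at least 2-fold apart and 9.93% of all genes in the table. The matches of the SF3 genes are shown with the bases around them, on the gene's strand and with the 7 matching bases in capitals, since this element was the feature most common in that family.
Sf3a1, chr11:4160336-4160364, plus strand: agagggcgggaCCGGAAGtgctcccgcgg
Sf3a2, chr10:80798648-80798676, plus strand: cgcctttgctcCCGGAAGggatcgcttcg
Sf3a3, chr4:124714760-124714788, plus strand: cccccaagacaCTTCCGGgacacgcggaa
Sf3b2, chr19:5295451-5295479, minus strand: ggattacgcaaCCGGAAGtttctggaagt
Sf3b3, chr8:110847015-110847043, minus strand: cccggtgggcgCTTCCGGgcttgcgaggt
Sf3b6, chr12:4817512-4817540, plus strand: tcgccccgcccCTTCCGGtccgcaatccg
Sf3b6, chr12:4817527-4817555, plus strand: cggtccgcaatCCGGAAGcgttctggagc
Sf3b1 had none in its window, and Sf3b4 and Sf3b5 were not among the genes matched to the table. In Sf3b6 the 2 matches lie on opposite strands. The distance to the start ran from 7 bases in Sf3a1 to 229 in Sf3b3.

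Other genes of splicing were taken from lists of pathway members. Of 46 core spliceosome proteins outside the 4 families, 0 differed at least 1.5-fold, against 12.4% of all genes, and 29 (63.0%) were higher by any amount, against 52.1%. The median was 0.10. Prpf38a, a component needed for spliceosome activation, had 586.3 on the IL-27-treated array and 401.9 on the untreated array, a difference of 0.54. Ppih, a cyclophilin of the U4/U6 snRNP, differed by 0.52, with all 3 probe sets between 0.52 and 0.61. The ring proteins Lsm2 and Lsm3, which bind U6 RNA, differed by 0.50 and 0.39.

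SR-related proteins and SR protein kinases were measured by 18 genes, of which 0 were 1.5-fold apart, against 12.4% of all genes, and 7 (38.9%) had a positive difference, against 52.1%. Their median was -0.03. Srpk1, the kinase that phosphorylates SR proteins in the cytoplasm, had 387.1 on the IL-27-treated array and 573.5 on the untreated array, a difference of -0.57. The nuclear SR protein kinases Clk2 and Clk3 differed by -0.36 and -0.30, each from 1 probe set. Pnn, the SR-related protein pinin, differed by 0.30, and its 3 probe sets lay between 0.30 and 0.58.

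The 29 other RNA-binding regulators above the floor held the widest value. Mbnl3, a muscleblind protein that regulates alternative splicing, had 286.7 on the IL-27-treated array and 123.0 on the untreated array. Its difference was 1.22 from 1 probe set. It was the 1 gene of the 29 at least 2-fold apart, against 4.22% of all genes above the floor, and 2 were at least 1.5-fold apart, against 12.4%. Rbmx, also called hnRNP G and outside the naming rule of the members, had 201.9 on the IL-27-treated array and 125.7 on the untreated array, a difference of 0.68, but 0.11 by its other probe set. Fubp1 differed by 0.36, with 0.07 and 0.11 by its other probe sets, and Ptbp1, the polypyrimidine tract binding protein that represses exons, by -0.33. The list's median was 0.05, and 18 genes (62.1%) were higher by any amount, against 52.1% of all genes.

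Genes that act before and after splicing made up the last lists. In the SMN complex, which loads Sm proteins onto snRNAs, and its partners, 11 of 13 genes (84.6%) were higher by any amount, against 52.1% of all genes, with a median of 0.17. Gemin6 had 447.5 on the IL-27-treated array and 282.0 on the untreated array, a difference of 0.67, Wdr77, a partner of the methyltransferase that modifies Sm proteins, differed by 0.48, with 0.12 by the second of its 3 probe sets, Gemin2 by 0.43 and Gemin8 by -0.45. Of 12 genes of the exon junction complex and mRNA export, 9 (75%) were higher by any amount, with a median of 0.12, and Thoc7, Thoc1 and the helicase gene Ddx39b differed by 0.49, 0.39 and 0.36, whereas Thoc2 differed by -0.20.

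**Figure D4:**
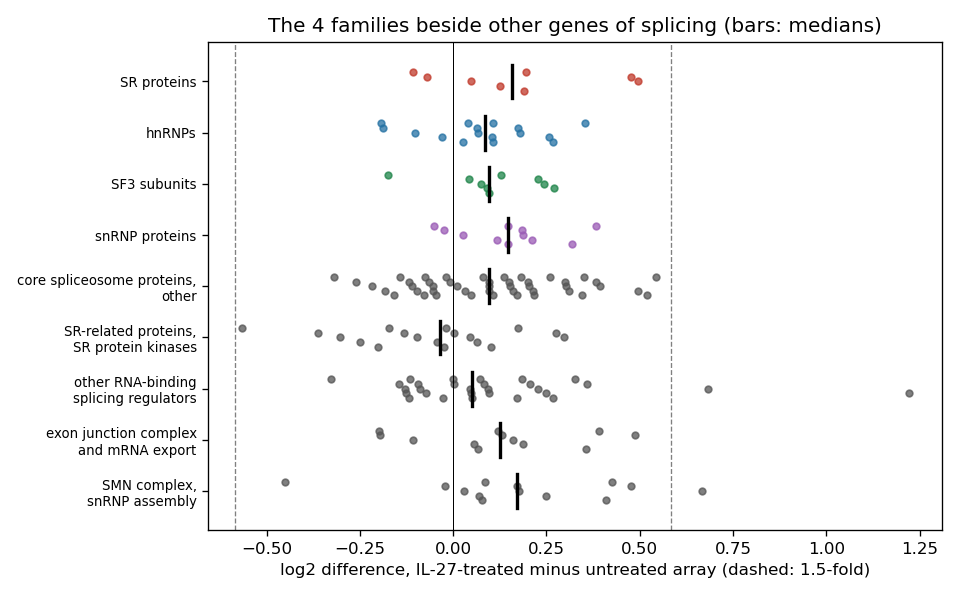
Log2 difference, IL-27-treated minus untreated array, of every gene above the floor in the 4 families and in 5 further lists of splicing genes, with bars at the medians and dashed lines at 1.5-fold. Mbnl3 at 1.22, Rbmx at 0.68 and Gemin6 at 0.67 lie past 1.5-fold, and the SR-related list has the one median below 0, at -0.03.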

How the data were processed

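Each of the 2 arrays hybridised biotin-labelled cRNA made from 100 ng of total RNA with a 3′ kit, per the labels' protocols. The deposited table holds 1 linear intensity per probe set and array, made by the authors with RMA per the submitters' processing notes, whose version is not given in the sources used here. This makes the intensity distributions of arrays alike and shrinks differences of dim probe sets. The platform annotation gave 1 symbol to 18003 probe sets, several to 287 and none to 4426. Entrez identifiers of 17977 matched the RefSeq gene table and changed 0 symbols.

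Deposited intensities were put on the log2 scale with no pseudocount (pandas 2.3.3, numpy 2.4.6). Of several probe sets, the one brightest on average stood for the gene. The floor was the 95th percentile of 41 genes of other tissues. Alternatives covered the filter, normalization (lowess of statsmodels 0.14.6), the choice of probe set, the fold limit and a pseudocount of 16. The calculation was tested on simulated data with differences larger than that of any member, so this says little about small differences. With 1 array per group no test was possible.

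Every member above the floor could be named, and of each further list up to 4 genes with the largest absolute difference. Members and lists were chosen with earlier results of these data known. Promoter motifs were chosen after the values were seen. Matches to Hnrnph3 are not counted, since its probe set has several symbols.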

Additional observations from a re-analysis of the deposited data

Results flagged for a closer look

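These values lie outside the comparison of members and were higher on the IL-27-treated array than on the untreated array by more than 0.322 on the log2 scale. Of the probe sets that the annotation gives to 2 genes, 1 shared by Hnrnph3 and Rufy2 had 294.2 on the IL-27-treated array and 207.6 on the untreated array, a difference of 0.50. Another, shared by Phykpl and Hnrnpab, had 37.2 on the IL-27-treated array and 27.5 on the untreated array, a difference of 0.44. Which of the 2 genes each reads was not tested.

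The control probe sets for 18S ribosomal RNA differed by 1.55 at the 3′ end, 1.22 at the 5′ end and 1.10 in the middle, with 1336, 1342 and 625.7 on the IL-27-treated array and 455.8, 575.2 and 291.6 on the untreated array. The 5′ control probe set for the transferrin receptor differed by 0.39, with 61.9 on the IL-27-treated array and 47.1 on the untreated array. Lower controls were those for pyruvate carboxylase, of which the 3′ probe set had 56.8 on the IL-27-treated array and 134.8 on the untreated array and one in the middle 16.6 on the IL-27-treated array and 24.9 on the untreated array.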

How the results depend on the processing

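No member differed at least 2-fold or 1.5-fold under any alternative run. With a limit of 0.322 on the log2 scale the counts were 4 of all 44 members, 2 SR proteins, 1 hnRNP, 0 SF3 subunits and 1 snRNP protein, all higher. Of all genes above the floor, 16.5% were higher and 16.6% lower by that limit. Family medians stayed positive in all 45 values recomputed, between 0.04 and 0.19, but 4 moved by over 1.5 times. Many of the 45 come from settings that only filtered dim genes or raised dim values to the floor. Those largely repeat the main values and say little about stability. With the mean of all probe sets the median was 0.0429 for SR proteins, against 0.16 in the report, and 0.0528 for hnRNPs, against 0.09. That mean takes in probe sets below the floor, as for Srsf2, at 0.04 with them and 0.15 without. With loess it was 0.0561 for hnRNPs and 0.0625 for SF3 subunits, against 0.10. The cause was not tested. The share of members higher by any amount ran from 75% (33 of 44, mean of all probe sets) to 84.1% (37 of 44, array medians subtracted), while the share of all genes higher ran from 48.0% with dim genes kept to 56.8% with array medians subtracted. Of the 44 members, 3 moved by more than the probe set SD of 0.21. Srsf1 moved to 0.10 with the mean of all probe sets and 0.16 without _x_at and _s_at probe sets, Sf3b4 to 0.03 with the mean, where the disagreeing probe set enters, and Hnrnpll to 0.50 without _x_at and _s_at probe sets. The signs of Snrpg, Snrpb2, Srsf6, Hnrnpul2 and Snrpd3 turned in 8 of 391 values, all of them within 0.11 of 0 after the turn. With the mean of all probe sets Snrpd3 turned to 0.08, where its probe sets below the floor enter. Many of the 391 could not turn. Filters and the raising of dim values left member values as they were, and a pseudocount cannot change a sign. No paired analysis was possible because each group has 1 array.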
